A study of Mus musculus with 20 samples.

Results

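The genes described here are 42 genes of G2 and mitosis, the part of the cell cycle in which chromosomes condense, attach to a spindle, separate and are divided between daughter cells. They were chosen by function, as a list of symbols, and all 42 were found among the 43472 genes of the count table. Their RNA was measured by bulk sequencing of whole ventral prostate from male mice that had all been orchidectomised, which removes the source of testicular androgen, and then given testosterone or vehicle for 4 days. ARNoC/Y males (ARNoC) have an androgen receptor in which the contact between the amino-terminal and carboxyl-terminal ends is lost, and wild type C57BL/6J males (WT) carry the normal receptor. The 4 groups were ARNoC with testosterone, ARNoC with vehicle, WT with testosterone and WT with vehicle, with 5 libraries each. The sources used here give no age, no dose of testosterone and no statement that each library is a different animal, and p-values reflect the spread among libraries, which may be technical. No intact group was analysed here, and the altered receptor sequence cannot be seen in gene counts, so genotype rests on the labels.

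Entry into mitosis is driven by the kinase CDK1 with A- and B-type cyclins. Condensins compact the chromosomes, kinetochores tie them to microtubules, a checkpoint holds back separation until every kinetochore is attached, and the anaphase-promoting complex (APC/C) then marks securin and cyclin B for destruction. In the adult prostate few cells divide, castration makes the gland regress, and the return of androgen is known to set off a wave of epithelial division while the gland regrows. In whole tissue, fewer dividing cells and less RNA per dividing cell cannot be told apart.

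Values are normalized counts, raw counts that the authors scaled by a size factor for each library. Libraries held 8861646 to 21600352 counts, the lowest in WT testosterone library 3 and the highest in ARNoC testosterone library 4. Of the 42 genes, 41 passed a filter of 10 normalized counts in at least 5 libraries. Ccnb1 did not. Of the 41, 34 reached 10 in at least 5 vehicle libraries. Ttk passed through testosterone libraries alone, and Cdc25c, Bub1, Ndc80, Nuf2, Kif4 and Ncapg passed only with testosterone libraries added. Rises of these genes with testosterone are given as values and not as support. Tests were edgeR's quasi-likelihood F-test over 15261 genes with Benjamini-Hochberg adjustment, called at an adjusted p under 0.05, and fold changes carry their standard error (SE). The tissue label was checked against markers. The summed level of 10 luminal epithelial markers was 714367 to 954060 with testosterone and 59255 to 76950 with vehicle in ARNoC, and 671503 to 1208570 with testosterone and 49249 to 62696 with vehicle in WT. The single markers did not all move with the sum, and 4 of the 10 rose and 5 fell in ARNoC (median log2 -0.30) and 4 rose and 4 fell in WT (median log2 -0.23). The sum of 6 seminal vesicle markers was at most 48.3, in WT testosterone library 2, and that of 4 germ cell markers at most 5.89. Svs1 and Svs3a of the first list and Prm1 and Tnp1 of the second were at 0 in all 20 libraries.

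The mitosis genes were high in some testosterone libraries and at vehicle level in others, and most of them were high in the same libraries. In ARNoC with testosterone, 41 of the 42 genes in library 4, 40 in library 3 and 25 in library 2 lay above every ARNoC vehicle library, against 3 in library 1 and 4 in library 5. In WT with testosterone, 35 genes in library 3 and 30 in library 4 lay above every WT vehicle library, against 4 in library 1, 5 in library 2 and 5 in library 5. Over all genes tested the corresponding share was nearly even between libraries, at 26.8% to 32.8% in ARNoC and 26.3% to 31.8% in WT. ARNoC testosterone library 4 was the highest of its group for 40 genes, and WT testosterone library 3 was the highest of its group for 34.

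The mean of log2(normalized count + 1) over the 42 genes showed the same libraries as high. It was 5.11, 5.83, 6.55, 7.13 and 4.70 in ARNoC testosterone libraries 1 to 5, against 5.28, 4.62, 4.57, 5.47 and 4.17 in ARNoC vehicle libraries 1 to 5. In WT testosterone libraries 1 to 5 it was 4.74, 4.70, 6.44, 5.96 and 5.13, against 4.56, 4.27, 5.22, 4.84 and 5.48 in WT vehicle libraries 1 to 5. Libraries 1 and 5 of ARNoC with testosterone and libraries 1, 2 and 5 of WT with testosterone thus lay inside the range of their vehicle groups. The high libraries included the shallowest and the deepest of the series, with 8861646 counts in WT testosterone library 3 and 21600352 in ARNoC testosterone library 4. Vehicle libraries also differed among themselves, and library 4 was highest for 28 genes in ARNoC with vehicle and library 5 for 23 genes in WT with vehicle. The same vehicle libraries had the highest summed fibroblast, myeloid and endothelial markers of their groups, and the part of these cells in the mitosis values was not tested.

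**Figure D1:**
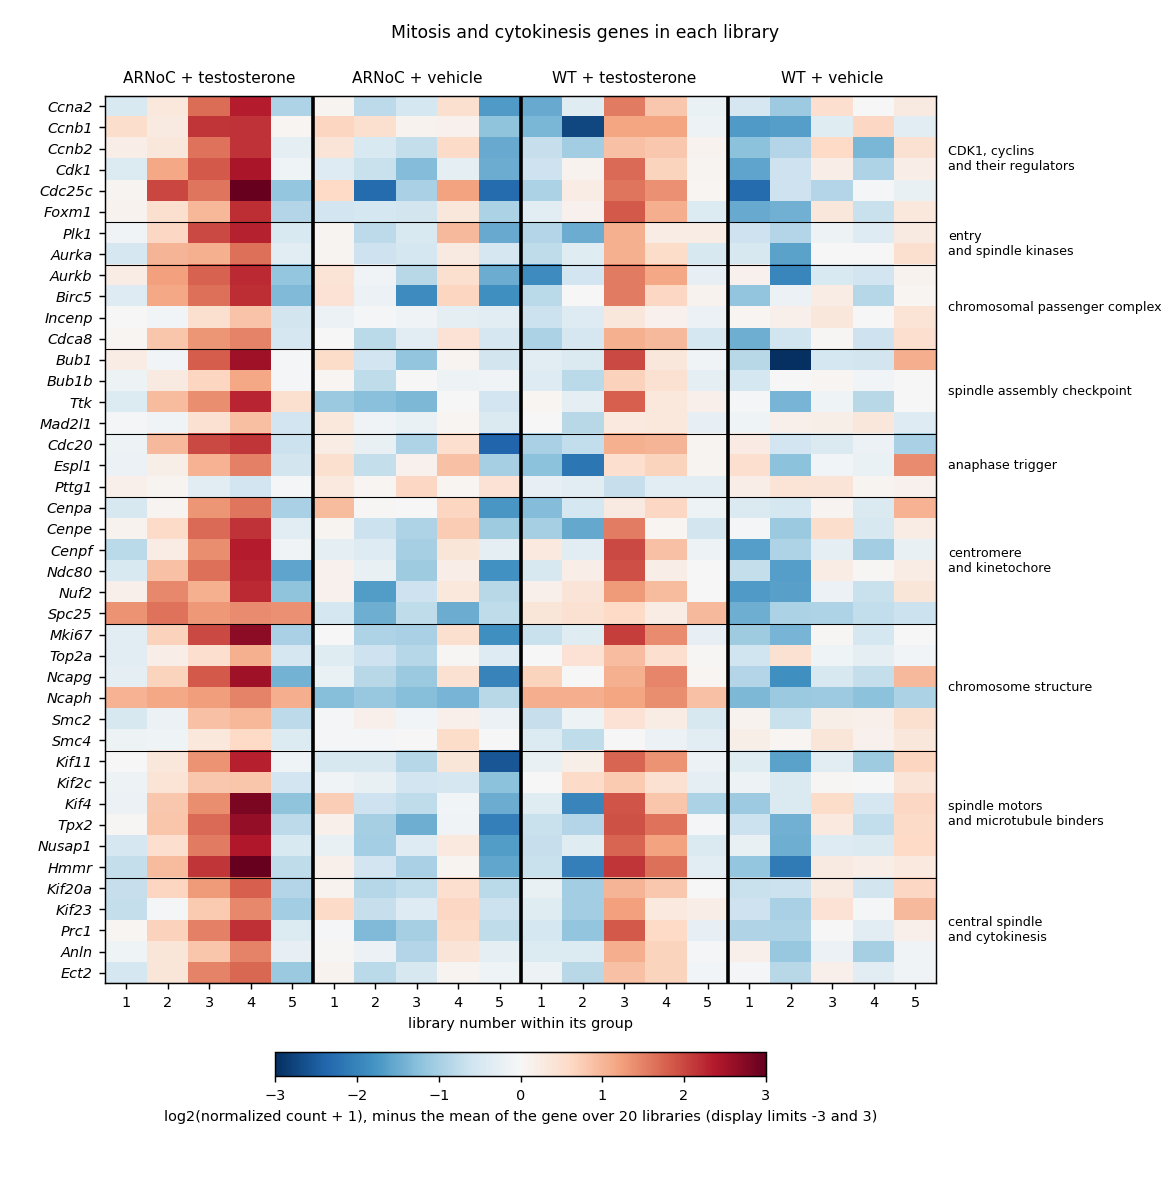
Each row is a mitosis or cytokinesis gene, grouped by role, and each column a library, numbered within its group; colour gives log2(normalized count + 1) minus the mean of the gene over the 20 libraries. Red columns mark libraries 2, 3 and 4 of ARNoC with testosterone and libraries 3 and 4 of WT with testosterone, while Ncaph and Spc25 are high across all testosterone libraries and Pttg1 runs the other way.

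**Figure D2:**
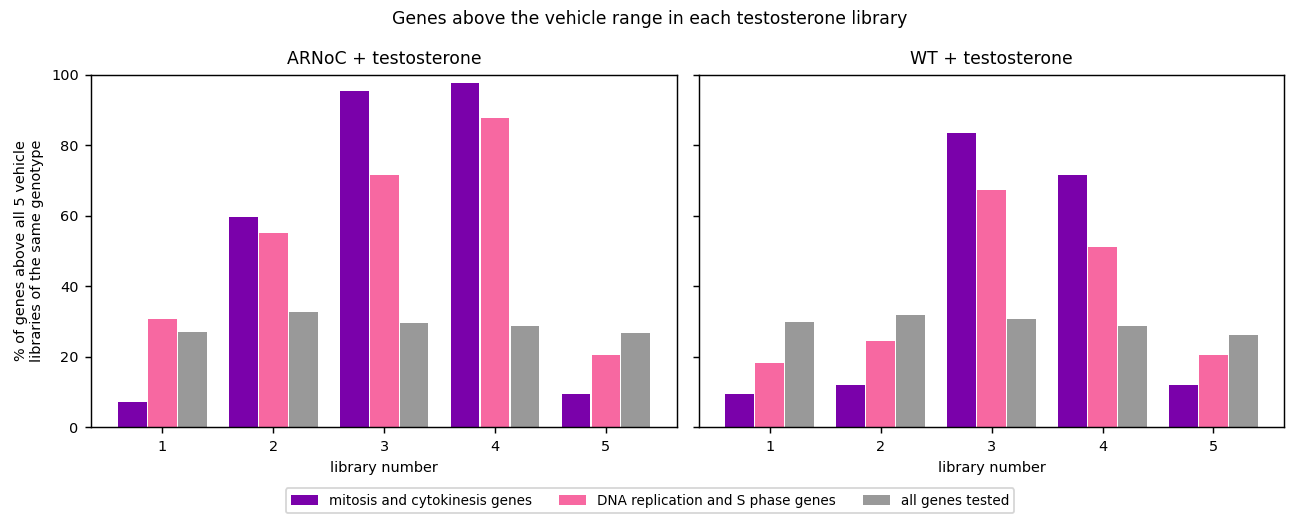
Bars give the percentage of genes above all 5 vehicle libraries of the same genotype in each testosterone library, for the 42 mitosis and cytokinesis genes, 49 genes of DNA replication and S phase and the 15261 genes tested. The mitosis bar reaches 97.6% in ARNoC library 4 and 83.3% in WT library 3, and the bar of all genes tested is nearly level.

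The spread between libraries of a group was wide. The median biological coefficient of variation was 0.558 over the 41 genes tested, against 0.146 over all genes tested, and 0.565 against 0.216 among genes with a mean of 20 to 200 normalized counts. In ARNoC, 20 of the 41 genes rose with testosterone, where 19.4% of all genes tested rose, and 1 fell, where 16.8% of all genes fell. The 20 include Ttk, Cdc25c, Ndc80, Nuf2 and Ncapg, which needed testosterone libraries to pass the filter, so the count leans towards rises. In WT, 3 rose, where 20.4% of all genes rose, and 2 fell, where 18.8% fell. The median log2 change was 1.44 in ARNoC, against -0.01 over all genes, and 0.68 in WT, against -0.02 over all genes. The groups did not overlap between testosterone and vehicle in 2 genes that were higher in ARNoC, where 12.4% of all genes tested were higher without overlap, and in 2 higher and 2 lower genes in WT, where the shares over all genes were 15.2% and 11.9%.

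The count in ARNoC rested on single libraries. It was 4 genes risen without testosterone library 4 and 7 without testosterone library 3, and 31 without testosterone library 5. It was 8 without vehicle library 2, 7 without vehicle library 3 and 7 without vehicle library 5. Cdk1, Spc25 and Ncaph were called in ARNoC whichever library was left out, as were Spc25, Ncaph and Pttg1 in WT. Ttk was also called in ARNoC each time, but had entered the test through testosterone libraries alone. With counts scaled to the library total, which moved the median of all genes to -0.36 in ARNoC and -0.44 in WT, 8 genes rose and 1 fell in ARNoC and 2 rose and 3 fell in WT.

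**Figure D3:**
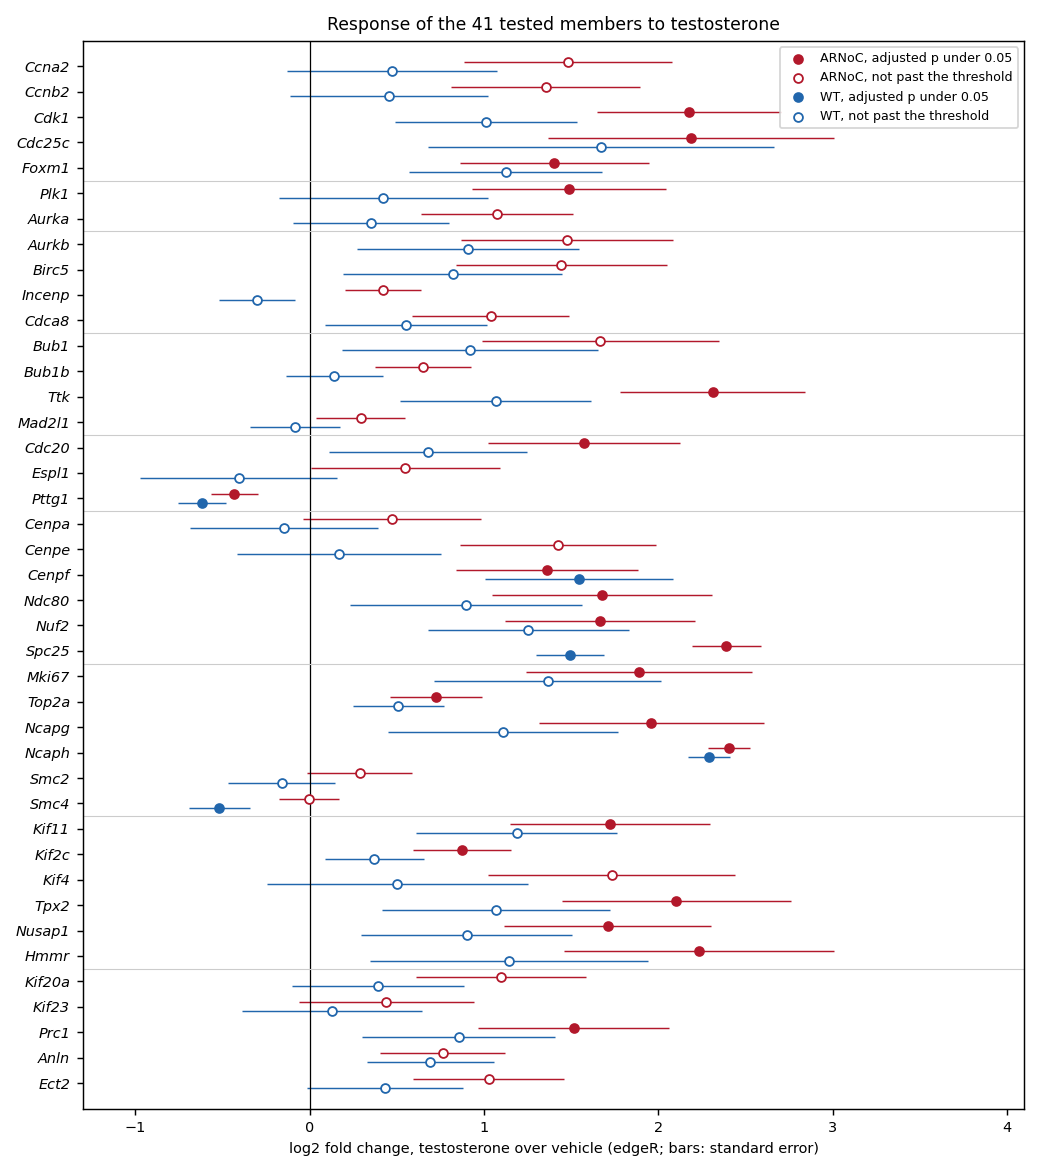
Points give edgeR's log2 fold change of testosterone over vehicle for the 41 genes tested, red for ARNoC and blue for WT, with bars of 1 standard error; filled points have an adjusted p under 0.05. In ARNoC 39 genes lie right of 0 and in WT 34, with narrow bars for Ncaph, Spc25 and Pttg1 and wide bars for most others.

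Promoter sequences are shown for some of the genes above the vehicle range in some but not all testosterone libraries. These genes were picked without a fixed rule and are Mki67, Cdk1, Cdc20, Plk1 and Cenpf. Sequences are also shown for Spc25 and Ncaph, above vehicle in every testosterone library, and for Pttg1, which fell. Ncaph was still highest in library 4 of both testosterone groups. In many mitosis genes the DREAM and MuvB complexes are known to bind a cell cycle homology region near the start, with the core TTTGAA or TTTAAA, beside CCAAT boxes bound by NF-Y. The 160 bases before the RefSeq start are given 5′ to 3′ in the direction of the gene, on GRCm38.p6, and capitals mark matches on either strand to CCAAT, to TTTGAA or else to TTTAAA (on the opposite strand CCAAT reads ATTGG).
Mki67 (chr7:135716380-135716539, minus strand): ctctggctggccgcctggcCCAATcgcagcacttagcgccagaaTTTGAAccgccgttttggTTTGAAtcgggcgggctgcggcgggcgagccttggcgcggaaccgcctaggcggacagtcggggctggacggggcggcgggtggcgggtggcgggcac
Cdk1 (chr10:69352913-69353072, minus strand): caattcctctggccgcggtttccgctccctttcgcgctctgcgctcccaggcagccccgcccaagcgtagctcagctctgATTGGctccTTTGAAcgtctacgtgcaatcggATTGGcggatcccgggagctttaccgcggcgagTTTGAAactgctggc
Cdc20 (chr4:118437344-118437503, minus strand): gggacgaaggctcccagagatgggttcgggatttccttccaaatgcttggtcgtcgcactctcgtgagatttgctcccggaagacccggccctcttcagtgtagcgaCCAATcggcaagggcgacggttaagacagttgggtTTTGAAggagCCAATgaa
Plk1 (chr7:122159275-122159434, plus strand): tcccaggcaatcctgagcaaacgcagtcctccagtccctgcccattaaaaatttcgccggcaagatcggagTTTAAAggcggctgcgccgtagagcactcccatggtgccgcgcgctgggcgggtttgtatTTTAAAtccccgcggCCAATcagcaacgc
Cenpf (chr1:189688087-189688246, minus strand): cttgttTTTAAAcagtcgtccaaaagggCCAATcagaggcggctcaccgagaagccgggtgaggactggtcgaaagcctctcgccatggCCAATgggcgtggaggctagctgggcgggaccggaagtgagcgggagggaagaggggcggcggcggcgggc
Spc25 (chr2:69206214-69206373, minus strand): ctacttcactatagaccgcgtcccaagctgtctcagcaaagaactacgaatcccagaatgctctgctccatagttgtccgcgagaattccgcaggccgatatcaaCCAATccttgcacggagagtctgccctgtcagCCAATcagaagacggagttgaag
Ncaph (chr2:127133955-127134114, minus strand): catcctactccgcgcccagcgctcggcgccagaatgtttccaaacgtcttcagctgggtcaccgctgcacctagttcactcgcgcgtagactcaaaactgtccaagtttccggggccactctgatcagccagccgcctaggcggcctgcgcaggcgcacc
Pttg1 (chr11:43425982-43426141, minus strand): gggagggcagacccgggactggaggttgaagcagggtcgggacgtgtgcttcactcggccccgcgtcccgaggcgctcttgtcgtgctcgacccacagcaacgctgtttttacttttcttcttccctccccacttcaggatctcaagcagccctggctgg

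In windows of 250 bases before the start, searched on both strands, Mki67 and Cdk1 each held 2 TTTGAA and 3 CCAAT, Cdc20 held 1 TTTGAA and 2 CCAAT, Plk1 held 2 TTTAAA and 1 CCAAT, and Cenpf held 1 TTTAAA and 2 CCAAT. Spc25 held 2 CCAAT and no match to the TTTGAA or TTTAAA forms. Ncaph and Pttg1 held no match to any of the 3 motifs in this window. The Pttg1 window lies wholly inside the gene as GENCODE places it (43420250 to 43426251), so bases before that start were not searched. The windows of Cdca8, Kif2c and Kif4 also lie inside their genes. A RefSeq entry was found for 34 of the 42 genes. Of these, 12 held TTTGAA (35.3%, against 16.0% of 32851 promoters in the table), 6 held TTTAAA (17.6%, against 12.1%) and 25 held CCAAT (73.5%, against 33.8%). Either core with CCAAT stood in 15 (44.1%, against 8.78%), and no matches of different motifs overlapped. Mki67, Cdk1, Cdc20, Plk1 and Cenpf were all among these 15, and genes high in the same libraries without a core were not shown. No link between motif and response can therefore be read from the sequences shown. CCAAT without either core, as in Spc25, also stood in Aurka, Bub1, Bub1b, Ttk, Cdca8, Cenpe, Kif23, Kif4 and Hmmr, and Ndc80, Nuf2, Anln, Nusap1 and Mad2l1 held no match to any of the 3, like Ncaph and Pttg1. Mki67 and Cdk1 were above the vehicle range in libraries 3 and 4 of both testosterone groups. Of the genes just listed, the same held for Aurka, Bub1b, Ttk, Cdca8, Kif4, Hmmr, Nuf2, Anln and Nusap1. Of these, Ttk, Kif4 and Nuf2 needed testosterone libraries to pass the filter. Bub1, Cenpe, Kif23, Ndc80 and Mad2l1 were not above the vehicle range in WT testosterone library 4. A match is a run of letters and not a shown binding site.

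Cdk1, the kinase that drives mitotic entry (mm10 chromosome 10, 69335146 to 69352938, minus strand), rose 4.53-fold in ARNoC. It stood at 36.1, 109, 176, 269 and 43.9 normalized counts in ARNoC testosterone libraries 1 to 5, against 36.7, 29.8, 18.999, 39.8 and 16.7 in ARNoC vehicle libraries. Libraries 2, 3, 4 and 5 exceeded all vehicle libraries and library 1 did not (log2 2.18 ± 0.53, adjusted p 0.00287). The WT values were 30.8, 51.9, 158, 77.5 and 50.8 with testosterone, against 15.5, 30.7, 55.5, 25.01 and 55.4 with vehicle. Libraries 3 and 4 stood above the vehicle range, the other libraries lay within it, and the test was not passed (log2 1.01 ± 0.52, adjusted p 0.135).

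Among the other cell cycle regulators of this group, Cdc25c, the phosphatase that activates CDK1, and Foxm1, a transcription factor of G2 and mitosis genes, rose in ARNoC. Foxm1 averaged 61.3 ± 51.4 with testosterone and 23.8 ± 9.21 with vehicle in ARNoC (SD, n = 5 each; log2 1.40 ± 0.54, edgeR adjusted p 0.0493). Cdc25c was the lowest gene of the set per kilobase and reached 38.99 at most. Cyclin A2 (Ccna2) and cyclin B2 (Ccnb2) had log2 changes of 1.48 and 1.36 in ARNoC with adjusted p of 0.0588 and 0.0568, just outside the threshold. Cyclin B1 (Ccnb1) was at 5.93 to 28.8 with testosterone and 1.85 to 9.35 with vehicle in ARNoC, and at 0 to 14.1 with testosterone and 1.03 to 9.26 with vehicle in WT. It shares at least 96.6% of its sequence over 383 to 1294 aligned bases with 4 pseudogenes, among them Ccnb1-ps at 99.2%, so reads may be split or lost and its level is uncertain. No gene of this group passed in WT, where log2 changes ran 0.46 to 1.67.

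Aurka, the kinase of spindle pole maturation (mm10 chromosome 2, 172356190 to 172370535, minus strand), and Plk1, a kinase acting from mitotic entry to exit, form the kinase pair. Aurka stood at 22.3, 65.6, 67.9, 103 and 24.9 in ARNoC testosterone libraries, against 33.8, 20.3, 22.04, 38.7 and 22.2 in ARNoC vehicle libraries. Libraries 2, 3 and 4 were above the vehicle range and libraries 1 and 5 inside it (log2 1.08 ± 0.43, adjusted p 0.0592, not past the threshold). The WT libraries held 18.5, 24.8, 68.2, 46.99 and 22.5 with testosterone, against 22.7, 9.88, 32.3, 31.5 and 44.7 with vehicle. Above all vehicle libraries were libraries 3 and 4 (log2 0.35 ± 0.45, adjusted p 0.565). Plk1 rose in ARNoC, to 37.7 ± 30.7 with testosterone, against 13.9 ± 10.03 with vehicle (log2 1.49 ± 0.56, adjusted p 0.0419).

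The 4 genes of the chromosomal passenger complex, which corrects wrong attachments and guides cytokinesis, did not pass the test in either genotype. Its scaffold Incenp (mm10 chromosome 19, 9872296 to 9899551, minus strand) stood at 103, 97.2, 143, 187 and 70.03 in ARNoC testosterone libraries, against 91.3, 101, 94.995, 83.7 and 81.5 in ARNoC vehicle libraries. Library 5 was below every vehicle library while libraries 1, 3 and 4 were above all of them (log2 0.42 ± 0.22, adjusted p 0.137). The WT values were 64.7, 77.8, 130.3, 112 and 90.7 with testosterone, against 106, 114, 130.1, 101 and 136 with vehicle. Libraries 1, 2 and 5 were below the vehicle range and no library was above it (log2 -0.30 ± 0.22, adjusted p 0.293). The kinase Aurkb, survivin (Birc5) and borealin (Cdca8) had log2 changes of 1.48, 1.44 and 1.04 in ARNoC with adjusted p of 0.0631, 0.0687 and 0.0776, and of 0.91, 0.82 and 0.55 in WT.

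Of the spindle assembly checkpoint, Ttk, the kinase that starts checkpoint signalling, rose 4.97-fold in ARNoC (log2 2.31 ± 0.53, adjusted p 0.00188). It had low counts, 5.31 to 40.2 with testosterone and 2.28 to 7.32 with vehicle, and no vehicle library of either genotype reached 10. A gene admitted only through its testosterone libraries had to be higher there, so this rise is given as a value and not as support. Bub1b (BUBR1), which holds the APC/C inactive (mm10 chromosome 2, 118598211 to 118641591, plus strand), stood at 85.03, 116, 149, 215 and 91.4 in ARNoC testosterone libraries, against 98.5, 55.7, 94.2, 85.8 and 87.97 in ARNoC vehicle libraries. Libraries 2, 3 and 4 lay above the vehicle range and libraries 1 and 5 inside it (log2 0.65 ± 0.27, adjusted p 0.0699). WT libraries had 72.4, 54.2, 154, 130.4 and 79.05 with testosterone, against 66.1, 95.5, 99.4, 89.9 and 93.7 with vehicle. Libraries 3 and 4 were above the vehicle range and library 2 below it (log2 0.14 ± 0.28, adjusted p 0.718). The kinase Bub1 and the inhibitor Mad2l1 had log2 changes of 1.67 and 0.29 in ARNoC and 0.92 and -0.08 in WT, none past the threshold.

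Pttg1 (securin), the inhibitor that keeps separase inactive until anaphase (mm10 chromosome 11, 43420250 to 43426251, minus strand), fell in both genotypes. It stood at 371, 352, 266, 224 and 323 in ARNoC testosterone libraries, against 409.8, 350.2, 513, 347 and 453 in ARNoC vehicle libraries. Libraries 3, 4 and 5 were below every vehicle library, and library 4, where most mitosis genes were highest, was the lowest (log2 -0.43 ± 0.14, 1.35-fold lower, adjusted p 0.0173). The call in ARNoC was lost without vehicle library 3 (log2 -0.34, adjusted p 0.0600). In WT it stood at 282, 263, 208, 265 and 264 with testosterone, against 382, 447, 434, 353 and 363 with vehicle. The groups did not overlap, and library 3, the highest for most mitosis genes, was the lowest (log2 -0.62 ± 0.14, 1.54-fold lower, adjusted p 0.00135). Per kilobase of exon Pttg1 had the highest level of the 42 genes, at 172 normalized counts over all libraries.

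The other genes of the anaphase step are Cdc20, which activates the APC/C, and Espl1, the protease separase that cuts cohesin. Cdc20 rose 2.98-fold in ARNoC, to 68.6 ± 50.9 with testosterone, against 23.4 ± 14.4 with vehicle (log2 1.58 ± 0.55, adjusted p 0.0303). In WT it averaged 35.9 ± 22.5 with testosterone and 22.5 ± 7.64 with vehicle and did not pass (edgeR adjusted p 0.365). Espl1 had a log2 change of 0.55 in ARNoC and -0.41 in WT, neither past the threshold.

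Spc25, a subunit that anchors the Ndc80 complex to the inner kinetochore (mm10 chromosome 2, 69193895 to 69206194, minus strand), rose in every testosterone library of both genotypes. It stood at 232, 281, 224, 244 and 234 in ARNoC testosterone libraries, against 61.8, 32.3, 53.2, 31.4 and 52.8 in ARNoC vehicle libraries. The groups did not overlap, and libraries 1 and 5, low in most mitosis genes, stood beside libraries 3 and 4 (log2 2.39 ± 0.20, 5.24-fold, adjusted p 1.29e-08). In WT it stood at 117, 124, 138, 106 and 178 with testosterone, against 32.02, 46.1, 47.2, 53.7 and 57.5 with vehicle. Again the groups did not overlap, and library 5, not the library 3 that led in most genes, was the highest (log2 1.49 ± 0.20, 2.82-fold, adjusted p 5.49e-06).

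The partners of Spc25 in the 4-subunit Ndc80 complex did not follow it in every library. Ndc80 and Nuf2, which form the end that binds microtubules, had 2.37 to 48.6 and 4.75 to 61.8 with testosterone and 1.85 to 10.5 and 3.17 to 15.7 with vehicle in ARNoC, with overlap between the groups. Both rose in ARNoC (log2 1.68 and 1.67, adjusted p 0.044 and 0.0212) and had log2 changes of 0.90 and 1.25 in WT (adjusted p 0.302 and 0.0917). Spc24, the direct partner of Spc25 and not among the 42 genes, averaged 29.7 ± 20.7 with testosterone and 16.5 ± 7.40 with vehicle in ARNoC (edgeR adjusted p 0.0972) and 17.7 ± 6.12 with testosterone and 14.2 ± 5.59 with vehicle in WT (edgeR adjusted p 0.616). Per kilobase of exon, Spc25 was at 76.2 with testosterone in ARNoC, where Ndc80 was at 3.25 and Nuf2 at 4.49.

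Cenpf, a large kinetochore protein (mm10 chromosome 1, 189640606 to 189688086, minus strand), rose in both genotypes, with overlap between testosterone and vehicle libraries in each. It stood at 38.3, 79.6, 178, 352 and 62.9 in ARNoC testosterone libraries, against 56.1, 51.3, 33.4, 86.8 and 54.6 in ARNoC vehicle libraries. Libraries 3 and 4 were above the vehicle range and the other libraries within it (log2 1.36 ± 0.52, adjusted p 0.0469). The values in WT were 83.2, 53.04, 268, 126 and 60.7 with testosterone, against 20.7, 35.1, 55.5, 32.4 and 57.5 with vehicle. Library 2 was the only testosterone library inside the vehicle range, and library 3 was the highest (log2 1.55 ± 0.54, adjusted p 0.0282). The call was lost in WT without testosterone library 3 (log2 0.96, adjusted p 0.149) and in ARNoC without testosterone library 4 (log2 0.64, adjusted p 0.32). It was also lost in WT without testosterone library 4 (log2 1.48) or vehicle library 1 (1.38), 2 (1.504) or 4 (1.48), and in ARNoC without testosterone library 3 or vehicle library 1, 2, 3 or 5 (log2 1.22 to 1.36). The centromeric histone Cenpa and the motor Cenpe, which carries chromosomes to the spindle equator, had log2 changes of 0.47 and 1.42 in ARNoC and -0.15 and 0.17 in WT, none past the threshold.

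Mki67, which coats mitotic chromosomes and is the usual marker of cycling cells (mm10 chromosome 7, 135689784 to 135716361, minus strand), rose 3.71-fold in ARNoC. It stood at 103, 209.5, 512, 843 and 65.3 in ARNoC testosterone libraries, against 128, 67.8, 65.4, 181 and 35.2 in ARNoC vehicle libraries. Libraries 2, 3 and 4 were above the vehicle range, and libraries 1 and 5 were inside it (log2 1.89 ± 0.65, adjusted p 0.0274). The call was lost without testosterone library 4 (log2 1.19, adjusted p 0.157), and also without testosterone library 3 or vehicle library 2, 3 or 5 (log2 1.67 to 1.79). In WT, Mki67 stood at 81.6, 100.2, 551, 347 and 108 with testosterone, against 60.9, 48.3, 133, 88.9 and 129 with vehicle. Libraries 3 and 4 exceeded the vehicle range and the others did not (log2 1.36 ± 0.65, adjusted p 0.105). Top2a, the topoisomerase that untangles sister DNA, rose 1.65-fold in ARNoC, with 349 to 1033 with testosterone and 274 to 506 with vehicle.

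Ncaph, the subunit that closes the ring of condensin I (mm10 chromosome 2, 127103809 to 127133954, minus strand), rose in both genotypes and in every testosterone library. It stood at 978, 1075, 1142, 1350.3 and 1011 in ARNoC testosterone libraries, against 196, 215, 196, 179.9 and 268 in ARNoC vehicle libraries. The lowest testosterone library was more than 3 times the highest vehicle library (log2 2.40 ± 0.12, 5.29-fold, adjusted p 1.03e-11). In WT it stood at 1022, 1021, 1090.3, 1256 and 881 with testosterone, against 187, 222, 223, 203 and 246 with vehicle. The groups were as far apart as in ARNoC, and library 5, which was low in most mitosis genes, was the lowest by a small margin (log2 2.29 ± 0.12, 4.90-fold, adjusted p 2.29e-11). Over 10 alternatives that left out a library and 9 other settings, its log2 change stayed between 2.07 and 2.51 in ARNoC and 1.87 and 2.34 in WT.

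Smc4, an ATPase of the condensin core (mm10 chromosome 3, 69004738 to 69034623, plus strand), fell in WT. It stood at 256, 261, 359.5, 431 and 215 in ARNoC testosterone libraries, against 276, 277, 283, 422 and 284 in ARNoC vehicle libraries. The groups overlapped and the difference was close to 0 (log2 -0.00092 ± 0.17, adjusted p 0.997). For WT the values were 217, 169.7, 285, 254 and 230.5 with testosterone, against 323, 297, 369, 311 and 363 with vehicle. All testosterone libraries were below all vehicle libraries (log2 -0.52 ± 0.18, 1.43-fold lower, adjusted p 0.024), and the call was lost without vehicle library 3 (log2 -0.48, adjusted p 0.0548) or vehicle library 5 (log2 -0.49, adjusted p 0.0507).

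Its partner ATPase Smc2 had log2 changes of 0.29 in ARNoC and -0.16 in WT, and neither passed. Ncapg, a regulatory subunit of condensin I, rose in ARNoC to 36.4 ± 34.5 with testosterone, against 9.71 ± 6.62 with vehicle (log2 1.96 ± 0.65, adjusted p 0.0223). Ncapd2, its companion, and the condensin II subunits Ncapd3, Ncapg2 and Ncaph2, none among the 42 genes, had log2 changes of 0.47, 0.02, 0.07 and -0.04 in ARNoC and 0.08, -0.08, -0.46 and -0.05 in WT, and none passed. Per kilobase of exon, Ncaph was at 258 with testosterone and 48.97 with vehicle in ARNoC, while Ncapg was at 5.15 with testosterone and 1.37 with vehicle.

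The genes next to Ncaph and Spc25 were looked at after these values were seen. Itpripl1, 4817 bases before the start of Ncaph on the same strand, rose 2.40-fold in ARNoC and 2.22-fold in WT, to 2584 ± 277 and 2327 ± 229 with testosterone, against 1080.4 ± 126 and 1055 ± 167 with vehicle. On the other side Blvra, which encodes biliverdin reductase A, lies 6724 bases away on the plus strand and had log2 changes of -0.15 in ARNoC (adjusted p 0.206) and -0.24 in WT (adjusted p 0.036). G6pc2, which encodes a glucose-6-phosphatase known from pancreatic islets, starts 4878 bases from Spc25 on the opposite strand. It averaged 73.02 ± 29.6 with testosterone in ARNoC, where the 5 vehicle libraries held 4 raw counts in all. In WT it averaged 27.5 ± 21.6 with testosterone, where the vehicle libraries held 0 raw counts. G6pc2 rose in both genotypes (edgeR adjusted p 6.44e-06 in ARNoC and 3.71e-05 in WT), but entered the test through testosterone libraries alone. Its vehicle libraries reached at most 2.88 normalized counts in ARNoC, so the rise is given as a value and not as support. Nostrin, 4564 bases away on the other side, had log2 changes of -0.05 in ARNoC and 0.02 in WT and did not pass.

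**Figure D4:**
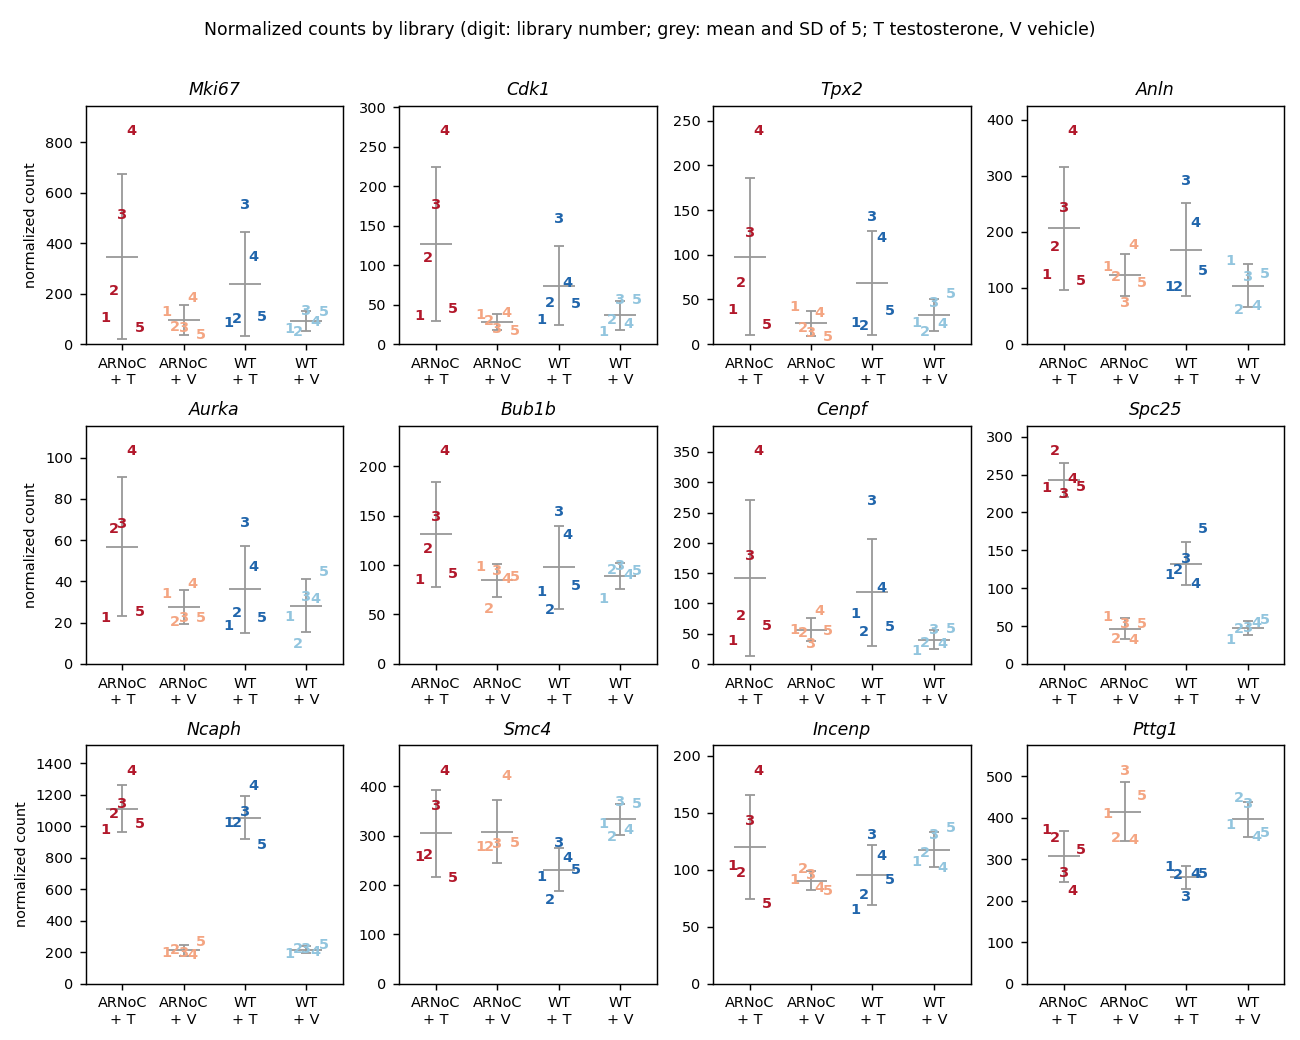
Each panel shows the normalized count of a gene in the 20 libraries; digits are library numbers within a group and grey lines the mean and SD of 5 libraries. Digits 3 and 4 lie at the top of the testosterone groups in Mki67, Cdk1, Tpx2, Anln, Aurka, Bub1b and Cenpf, while Ncaph and Spc25 show no overlap with vehicle and Pttg1 is lowest in library 4 of ARNoC and library 3 of WT.

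Of the 6 motors and microtubule binders, 5 rose in ARNoC and none passed in WT by edgeR, where log2 changes ran 0.37 to 1.19. Tpx2, which activates Aurora A and starts microtubules near chromosomes (mm10 chromosome 2, 152847964 to 152895321, plus strand), stood at 38.3, 67.9, 124, 238 and 21.4 in ARNoC testosterone libraries, against 41.7, 18.4, 12.9, 34.5 and 8.33 in ARNoC vehicle libraries. Libraries 2, 3 and 4 were above the vehicle range (log2 2.10 ± 0.66, 4.30-fold, adjusted p 0.0164), and the call was lost without testosterone library 4 (log2 1.40). The WT libraries held 23.1, 20.04, 143, 119 and 36.6 with testosterone, against 23.8, 13.2, 46.4, 22.2 and 56.4 with vehicle. Libraries 3 and 4 were more than 2 times the highest vehicle library and the other libraries were inside the vehicle range (log2 1.07 ± 0.65, adjusted p 0.204).

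The others that rose in ARNoC were Kif11, the motor that pushes spindle poles apart (log2 1.72 ± 0.57), Kif2c, which shortens microtubules at kinetochores (0.87 ± 0.28), Nusap1, which bundles microtubules at chromosomes (1.71 ± 0.60), and Hmmr, a spindle protein also known as a hyaluronan receptor (2.23 ± 0.78). Their adjusted p ran from 0.0205 for Kif2c to 0.0298 for Nusap1. Kif4, a chromosome-bound motor, had a log2 change of 1.73 and an adjusted p of 0.0627. Hmmr was 7.12 to 112 with testosterone and 3.70 to 14.4 with vehicle in ARNoC, and 2.36 to 60.5 with testosterone and 2.20 to 15.98 with vehicle in WT.

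Cytokinesis, the cutting of the cell, was represented by 5 genes, of which Prc1, the bundler of the central spindle, rose in ARNoC to 108 ± 79.1 with testosterone, against 38.7 ± 22.2 with vehicle (log2 1.52 ± 0.55, adjusted p 0.0356). Anln (anillin), the scaffold of the contractile ring (mm10 chromosome 9, 22332012 to 22389188, minus strand), stood at 122, 173, 242, 379 and 113 in ARNoC testosterone libraries, against 137, 119, 72.96, 176.8 and 109 in ARNoC vehicle libraries. Above the vehicle range were libraries 3 and 4 (log2 0.76 ± 0.36, adjusted p 0.103). WT libraries had 102, 101, 290.0, 216 and 131 with testosterone, against 149, 60.4, 120.1, 67.6 and 125 with vehicle. The same library numbers, 3 and 4, were above the vehicle range (log2 0.69 ± 0.36, adjusted p 0.141). The motors Kif20a and Kif23 and the RhoA activator Ect2 had log2 changes of 1.10, 0.44 and 1.03 in ARNoC and 0.39, 0.13 and 0.43 in WT, none past the threshold.

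The genotypes were then compared under the same treatment. With vehicle, edgeR called 0 of the 41 genes between ARNoC and WT (0.321% of all genes were called), 0 had an unadjusted p under 0.05 (7.49% of all genes did), and DESeq2, limma-trend and limma-voom called 0. Log2 differences ran from -0.52 to 0.66 with a median of -0.07. In Incenp all ARNoC libraries were lower than all WT libraries (0.806% of all genes tested were lower without overlap), with an adjusted p of 0.768.

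With testosterone, Spc25 alone was called between the genotypes, at 243 ± 22.5 in ARNoC and 133 ± 28.02 in WT, a 1.83-fold difference without overlap (log2 0.87 ± 0.19, adjusted p 0.0181). Over all genes tested 0.681% were called higher in ARNoC and 1.51% were higher without overlap. The call was lost without WT testosterone library 1 or 4. Ncaph was at 1111 ± 148 in ARNoC and 1054 ± 136 in WT (log2 0.08 ± 0.11, adjusted p 0.777). Of the 41 log2 differences 40 were positive, where 52.3% of all genes were, with a median of 0.60. Most of these genes were high in the same libraries, so the 41 differences are not separate observations.

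A larger response in ARNoC than in WT was tested as the interaction of genotype and testosterone. It called 0 of the 41 genes and 0.0% of all genes by edgeR, and 0 of the 41 genes by DESeq2, limma-trend and limma-voom. At an unadjusted p under 0.05 edgeR gave 3 of the 41 genes, which were Spc25, Incenp and Smc4, where 8.56% of all genes did so. The smallest adjusted p was 0.394, for Spc25, with a difference of 0.90 ± 0.27 on the log2 scale. Differences were wide for most genes, such as 0.53 ± 0.90 for Mki67 and 1.17 ± 0.73 for Cdk1, and narrow for Ncaph (0.11 ± 0.16). A count of 20 risen genes in ARNoC beside 3 in WT is therefore not shown to be a difference between the genotypes.

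Other cell cycle genes were taken as lists. Their counts stand against the 19.4% and 16.8% of all genes tested that rose and fell in ARNoC and the 20.4% and 18.8% in WT. In each testosterone response the 3 genes of smallest adjusted p are named. A gene given for a single genotype is not thereby unchanged in the other. Of 59 tested among 64 other mitosis genes, 16 rose (27.1%) and 1 fell in ARNoC and 10 rose (16.9%) and 2 fell in WT, with median log2 changes of 0.85 and 0.35. The share that rose was thus above that of all genes in ARNoC and below it in WT. Their smallest adjusted p belonged to Sgol1 (shugoshin, which guards cohesin at centromeres), Nek2, a centrosome kinase, and Cks1b, a subunit of CDK complexes. Sgol1 was at 56.1 ± 14.1 with testosterone and 15.4 ± 2.88 with vehicle in ARNoC (log2 1.88 ± 0.30, edgeR adjusted p 5.21e-05) and at 55.4 ± 17.6 with testosterone and 14.1 ± 7.35 with vehicle in WT (log2 1.96 ± 0.31, edgeR adjusted p 4.03e-05). Nek2 had log2 changes of 2.16 and 2.11 and Cks1b of 0.79 and 0.54 in ARNoC and WT, and all passed.

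Genes of DNA replication and S phase followed the same libraries. Of 49 genes, 27 in library 2, 35 in library 3 and 43 in library 4 of ARNoC with testosterone lay above every vehicle library, against 15 in library 1 and 10 in library 5, and in WT with testosterone 33 in library 3 and 25 in library 4, against 9, 12 and 10 in libraries 1, 2 and 5. Of 48 tested, 17 rose (35.4%) and 2 fell in ARNoC and 9 rose (18.8%) and 5 fell in WT. Rrm2, a subunit of the enzyme that makes deoxynucleotides, was at 284 ± 157 with testosterone and 51.1 ± 7.76 with vehicle in ARNoC (edgeR adjusted p 3.25e-06) and 214 ± 68.1 with testosterone and 45.97 ± 11.8 with vehicle in WT (edgeR adjusted p 1.43e-05). Cdc7, the kinase that fires replication origins, rose 2.47-fold and 3.31-fold in ARNoC and WT. Mcm10, a replication initiation factor, rose 4.77-fold in ARNoC, and Mcm6, a subunit of the replicative helicase, fell 2.20-fold in WT.

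Of 20 genes of the E2F, DREAM and MuvB regulators, 6 rose (30.0%) and 1 fell in ARNoC and 4 rose and 2 fell in WT. E2f1, a transcription factor of S phase entry, was at 199 ± 44.1 with testosterone and 32.2 ± 8.05 with vehicle in ARNoC and 116 ± 27.3 with testosterone and 29.1 ± 12.7 with vehicle in WT. Its log2 changes were 2.63 ± 0.26 and 2.01 ± 0.26 in ARNoC and WT, and its relative E2f2 had 1.10 and 1.44. Lin52, a MuvB subunit, had 0.65 and 0.55, and all of these passed.

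Among 12 tested D-type cyclins, CDKs and CDK inhibitors, 4 rose (33.3%) and 2 fell in ARNoC and 2 rose (16.7%) and 2 fell in WT. Cyclin D3 (Ccnd3) rose 1.53-fold and 1.49-fold in ARNoC and WT, and cyclin D1 (Ccnd1) rose 1.73-fold in WT. The CDK inhibitor p57 (Cdkn1c) fell 1.52-fold and 1.87-fold, and p27 (Cdkn1b) fell 1.39-fold in ARNoC. A list of 15 genes held APC/C subunits together with Fzr1, Fbxo5 and Ube2d1, which are not subunits. Of the 15, 1 rose and 4 fell (26.7%) in ARNoC and 2 rose and 3 fell in WT. Cdc27 rose 1.20-fold and 1.29-fold in ARNoC and WT and Anapc4 rose 1.24-fold in WT, while Anapc2 and Anapc7 fell 1.25-fold and 1.14-fold in ARNoC and Anapc11 fell 1.28-fold in WT.

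Markers of other cells moved with treatment and with some libraries. Of 9 macrophage and myeloid markers 7 fell in ARNoC and 9 in WT with testosterone, and of 8 tested T, B and natural killer cell markers 5 fell in each. In WT with testosterone the lymphocyte sums were 484 in library 3 and 8634 in library 4, which were high in mitosis genes. They were 487, 496 and 2443 in libraries 1, 2 and 5. The single markers did not all move with the sum. Their mean log2(normalized count + 1) was 3.59, 2.90, 2.81, 3.87 and 4.11 in libraries 1 to 5, so library 5 was the highest by that measure. The myeloid sum was 1404 in library 3 and 1192 in library 4, against 1329, 1063 and 2437 in libraries 1, 2 and 5. In ARNoC with testosterone the myeloid sums were 2065, 1908, 3445, 2476 and 2624 in libraries 1 to 5. The summed level of 6 smooth muscle markers was 31640 in library 3 and 38371 in library 4 of WT with testosterone, against 21590, 11023 and 18430 in libraries 1, 2 and 5. In ARNoC with testosterone it was 43351, 18235, 39631, 35881 and 38839 in libraries 1 to 5. No marker of these lists was at 0 throughout a group, and their part in the mitosis values was not tested.

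The fibroblast sum was 7846 in WT vehicle library 2 and 5569 in ARNoC vehicle library 5, against 21264 to 58576 in the other vehicle libraries. Both libraries were low in many mitosis genes, with mean log2 levels of 4.27 and 4.17. Without these 2 libraries 9 genes rose and 1 fell in ARNoC and 2 rose and 2 fell in WT. The vehicle libraries high in mitosis genes stood apart the other way. ARNoC vehicle library 4 had sums of 47387 for fibroblast, 9451 for myeloid and 1233 for endothelial markers, against 5569 to 33264, 2014 to 7804 and 349 to 961 in the other ARNoC vehicle libraries. WT vehicle library 5 had 58576, 13592 and 2277, against 7846 to 29462, 2001 to 7428 and 673 to 1360 in the other WT vehicle libraries. Without ARNoC vehicle library 4, 24 genes rose and 1 fell in ARNoC, and without WT vehicle library 5, 4 rose and 1 fell in WT.

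Some values share reads with other genes. The strand setting of the counting is not given in the sources used here, so reads of exons that overlap a gene on the other strand cannot be told apart. Such overlaps were 1271 bases for Kif20a with Cdc23, 944 for Ncapg with Lcorl, 911 for Prc1 with Rccd1, 832 for Kif4 with Pdzd11, 623 for Cdc25c with Gm3550, 510 for Ccna2 with Exosc9 and 232 for Cdca8 with 9930104L06Rik. They were 172 for Nusap1 with Oip5, 156 for Plk1 with Gm44985 and 53 for Cdc20 with Elovl1, and Foxm1 shares 144 bases with Tex52 on its own strand. Top2a shares 122 exon bases with Gm23451 on its own strand, and Foxm1 also 97 with Gm44596. Mki67 has a pseudogene copy, Gm44521, at 98.6% identity over 216 aligned bases. Mad2l1 has a pseudogene copy, Gm42430, at 95.4% over 454 aligned bases. Ncaph, Spc25, Pttg1, Cdk1 and Tpx2 had no such exon overlap and no near-identical copy of at least 200 bases and 95% identity.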

How the data were processed

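Total RNA of ventral prostate was sequenced from Illumina TruSeq libraries, per the labels' protocols. Quality control (FastQC 0.11.7), alignment (HISAT2), file handling (SAMtools 1.5), counting (HTSeq) and DESeq2 on build mm10 are named in the submitters' processing notes, which state no annotation, strand setting or read filter. The authors deposited raw counts per gene symbol for 43472 genes. The deposited normalized signal is each count over a size factor, for 23221 genes. Rows naming no gene numbered 0. All 40 pairs of libraries within a group differed beyond counting noise (chi-square per degree of freedom 7.41 to 39.5), so each counted once. Depth limits the precision of genes with few counts.

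Genes reaching 10 normalized counts in 5 or more of 20 libraries were fitted with edgeR 4.0.16 (R 4.3.3), TMM scaling and 1 mean per group, over all 4 groups. Its quasi-likelihood test, adjusted by Benjamini-Hochberg over 15261 genes, gave 5 comparisons. The test was tried on simulated data in which every gene had the same spread. That spread was narrower than that of most mitosis genes, so the trial does not show how the test performs on them. Alternatives were DESeq2 1.42.0, limma-trend with a pseudocount of 1 and limma-voom (limma 3.58.1), other scalings and filters, a robust fit, fitting only the groups compared, and omitting each library in turn. Leaving out the vehicle libraries poor in fibroblast markers was chosen after seeing the data.

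The 42 genes and the other lists were chosen with earlier results of these data known. Values in every library are given for Mki67, for the highest gene of each of 9 role groups and for each gene called in WT; for other lists, the 3 genes of smallest adjusted p in each testosterone response are named. Knl1, Sgo1, Sgo2a and Adgre1 were matched under the older symbols Casc5, Sgol1, Sgol2 and Emr1. Gene positions, exon lengths and overlaps come from GENCODE annotation of mm10, near-identical copies from blastn 2.17.0, and promoters from RefSeq (GRCm38.p6). The highest gene of a role group was chosen on the mean normalized count, without regard to exon length. Apart from that choice, levels are compared between genes only per kilobase of exon. Figures were drawn with matplotlib 3.10.9.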

Additional observations from a re-analysis of the deposited data

Results flagged for a closer look

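A library stood far from the other 4 of its group in 10 of 168 sets of a gene and a group (5.95%), where chance gives about 1 in 20. In WT with testosterone, library 3 was far above the others in Bub1 (41.9 normalized counts), Ttk (27.9), Cenpe (66.7) and Ndc80 (37.2) and far below them in Pttg1 (207.8). In ARNoC with vehicle, library 4 was far above the others in Smc4 (421.6) and Foxm1 (39.8). In WT with vehicle, library 5 was far above the others in Cenpa (51.1) and Ncapg (28.8), and library 1 far below them in Bub1b (66.1).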

How the results depend on the processing

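The count of 21 genes called in the ARNoC response became 11 with the compared groups fitted alone, 11 of 20 tested with a filter of 50 normalized counts, 8 with limma-trend, 9 with total-count scaling and 10 without the vehicle libraries poor in fibroblast markers, and ran from 5 to 32 when a library was left out. DESeq2 called 26, limma-voom 17, the fit with no filter 15, RLE scaling 20 and the robust fit 19. The WT response called 4 or 5 genes under all settings and libraries left out, and the comparison of ARNoC with WT under testosterone 0 or 1 without a library. Cdk1, Spc25, Tpx2, Ncaph and Pttg1 were called in ARNoC under all 9 other settings, as were Spc25, Ncaph, Smc4 and Pttg1 in WT. The ARNoC call of Mki67 was lost with limma-trend (log2 1.47), limma-voom (1.68) and total-count scaling (1.54), and that of Cenpf with 6 settings. Total-count scaling called Incenp lower in WT (log2 -0.72). The direction of no called value reversed, and the cause of these moves was not tested. No paired analysis was possible because the numbers were given in accession order and tie no libraries together. The interaction was not fitted on compared groups alone, since it uses all 4. Genes with few counts, such as Cdc25c, Ttk and Ndc80, are limited by depth.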
